A study of Homo sapiens with 24 samples.

Results

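The immunoglobulin-like and lectin receptors of the myeloid cell surface were followed in 3 acute myeloid leukaemia cell lines treated with a menin inhibitor, a FLT3 inhibitor or both. The set was drawn by gene name: leukocyte immunoglobulin-like receptors (LILRA and LILRB), sialic acid binding lectins (SIGLEC and CD33), CD300 receptors, C-type lectins (CLEC, without CLEC16A), Fc gamma receptors (FCGR), TREM1, TREM2 and the signalling adaptors FCER1G and TYROBP. Of the 25680 genes in the tables, 70 names matched, and a member was kept in a line where its deposited value was at least 10 in at least 3 libraries. Thus 47 members were kept in MV411, 23 in MOLM13 and 39 in OCI-AML3, that is 50 in any line and 22 in every line. MV411 and MOLM13 have a rearranged MLL gene (KMT2A) and the FLT3-ITD mutation, whereas OCI-AML3 has mutant NPM1. MV411 cells had received DMSO, the solvent control (for a time the labels do not give), the menin-MLL inhibitor MI-503 at 2.5 µM for 3 days, the FLT3 inhibitor AC220 (quizartinib) at 3 nM for 24 hours, or MI-503 for 3 days together with AC220 for 24 hours at the same doses. MOLM13 and OCI-AML3 cells had received DMSO or MI-503 at 2.5 µM for 4 days. Each of the 8 groups had 3 RNA-seq libraries, which the labels call biological triplicates without saying how the cultures were separated, so p-values measure the spread between these libraries.

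Receptors of these families sit side by side on monocytes, macrophages, neutrophils and dendritic cells and come in opposed pairs. Inhibitory members carry an ITIM, a tyrosine motif in the cytoplasmic tail that recruits the phosphatases SHP-1 and SHP-2 (PTPN6 and PTPN11) and damps activation. Most activating members have short tails and depend on TYROBP (DAP12) or FCER1G (the Fc receptor gamma chain), whose ITAM motifs recruit the kinase SYK, and several members, such as CD33, CLEC12A and LILRB4, are used as markers or antibody targets in acute myeloid leukaemia.

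Total reads were 23168887 to 26596469 per MV411 library, 23281330 to 27240357 in MOLM13 and 44364964 to 72994481 in OCI-AML3. Values below are reads divided by a median-of-ratios factor within each line ("normalised reads"), and differences are limma estimates on log2(normalised reads + 1) with their standard error (SE) and an adjusted p over all genes of the comparison; "rose" and "fell" are used where that p was under 0.05. In MV411 the deposited values already had this scale. In MOLM13 and OCI-AML3 they did not, and on the deposited scale the median gene stood at -0.54 and -0.16 (log2, MI-503 against DMSO), so changes in these lines are relative to the median gene and the deposited scale is given beside the counts. The deposited factors of these lines shifted all genes of a library together, which gave limma an infinite prior degree of freedom on that scale (residual degrees of freedom, 4). Calls on the deposited scale are therefore given from each gene's own variance, a setting chosen after seeing the data. Monocyte and granulocyte identity genes were kept for 18 of 21 listed genes in MV411, 15 in MOLM13 and 21 in OCI-AML3, with summed levels of 71908.6 to 72764.8 normalised reads in MV411 with DMSO, 227549 to 236518 with MI-503, 113862 to 117098 with AC220 and 260965 to 267819 with both. The sums were 31111.8 to 32055.3 with DMSO and 49887.8 to 54146.4 with MI-503 in MOLM13, and 205000.4 to 213962.5 and 211975 to 225020.1 in OCI-AML3. For 9 T and NK cell markers the sums in MV411, in the same order, were 898.3 to 928.1, 1734 to 1887, 989.2 to 1062 and 2269 to 2559, and KLRD1 was at 0 in every MV411 group; they were 2859 to 3068 with DMSO and 4809 to 5021 with MI-503 in MOLM13, and 11154.4 to 11599.6 and 10782.7 to 11392.5 in OCI-AML3. NKG7 rose with MI-503 in MV411 (1.00 ± 0.054), MOLM13 (1.62 ± 0.062) and OCI-AML3 (0.60 ± 0.094). For 6 B cell markers the MV411 sums were 170.0 to 185.7, 85.2 to 95.4, 131.4 to 177.5 and 92.6 to 119.5, with MS4A1 at 0, and they went from 1341 to 1382 down to 892.1 to 1015 in MOLM13 and from 44.9 to 62.6 to 38.0 to 51.0 in OCI-AML3. For 8 erythroid and megakaryocyte markers the MV411 sums were 847.9 to 944.7, 260.9 to 297.7, 870.9 to 1019 and 275.0 to 351.9, with HBA1, HBB and PF4 at 0 in each group and a fall of the platelet integrin ITGA2B with MI-503 (-1.87 ± 0.097) and with both drugs (-1.76 ± 0.097). These sums were at most 11.1 in MOLM13, and 126.7 to 647.2 and 137.9 to 495.0 in OCI-AML3. For 7 epithelial and fibroblast markers they were at most 223.3 in MV411, with COL1A2 and COL3A1 at 0, 717.2 in MOLM13 and 561.8 in OCI-AML3. The part of these marker levels in the results was not tested, and in bulk libraries fewer cells expressing a gene and less RNA per cell cannot be told apart. OCI-AML3 MI-503 replicate 1 stood apart from its partners, at chi-squares per degree of freedom of 8.923 and 8.722, against 1.591 between the other two, and without it 14 members rose and 16 fell in that line. Combination replicates 1 and 3 in MV411 differed by 9.414, and without replicate 1 34 members rose and 9 fell against DMSO.

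In untreated cells the largest share of the members' reads came from LILRB4 in MV411 (22.6%) and from CLEC11A in MOLM13 (37.5%) and OCI-AML3 (27.6%). Compared per kilobase of exon, TYROBP was the highest member in MV411 with DMSO, at 3861 ± 265 normalised reads per kb (SD, n = 3), ahead of CLEC11A, a secreted growth factor of blood stem cells, at 3342 ± 35.2, and of FCER1G at 2080.5 ± 155. The inhibitory receptor LILRB4 followed at 1255 ± 36.1 and the inhibitory CD300LF at 858 ± 32.2. The order differed in the other lines: in MOLM13 CLEC11A led at 1945 ± 118 per kb and TYROBP followed at 244 ± 6.82, ahead of CD33 at 188 ± 13.6, with LILRB4 at 156 ± 8.86 and CD300LF at 149 ± 7.02 within their spread of each other. In OCI-AML3 CLEC11A stood at 10216 ± 331 and FCER1G at 5899 ± 140.1, with LILRB4 at 1463 ± 22.1 and TYROBP at 1090.3 ± 39.0. Summed over the members, the share of all reads was 0.135% to 0.141% in MV411 with DMSO, 0.174% to 0.180% with MI-503, 0.210% to 0.222% with AC220 and 0.255% to 0.276% with both. In MOLM13 the share went from 0.029% to 0.031% with DMSO to 0.053% to 0.054% with MI-503, and in OCI-AML3 from 0.089% to 0.090% to 0.116% to 0.118%.

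The 20 names kept in no line included FCGR3A and FCGR3B, the low-affinity Fc receptors of NK cells and neutrophils, CLEC9A and CLEC4C, markers of dendritic cell subsets, the mincle group CLEC4D, CLEC4E and CLEC6A, and CD300LD, CD300LG, CLEC14A, CLEC18A, CLEC18B, CLEC18C, CLEC19A, CLEC2A, CLEC2L, CLEC3A, CLEC4F, LILRB5 and SIGLEC11. One member per line was kept through 1 group alone and so had to differ: SIGLEC8 in MV411 with both drugs, CLEC12B in MOLM13 with MI-503 and CLEC2B, a ligand of an NK cell receptor, in OCI-AML3 with MI-503. Without them 35 of 46 members rose with both drugs in MV411, 20 of 22 rose in MOLM13, and 13 of 38 rose and 18 fell in OCI-AML3. Further members reached 10 in only 4 libraries, 3 of them from the group where they were highest, so the filter favoured their direction. They were LILRA5 (DMSO) and LILRA3 (both drugs) in MV411, TREM1 (MI-503) in MOLM13 and SIGLEC1 (DMSO) in OCI-AML3. They stay in these counts. Near the threshold in MV411, the third highest deposited value was 11.2 for CLEC1A and 12.2 for SIGLEC8 inside it, and 6.77 for SIGLEC16 and 5.76 for CLEC18B outside it. Reads of LILRA6 and LILRB3, of SIGLEC5 and SIGLEC14, of FCGR1A and FCGR1B and of FCGR2A and FCGR2B can be split between near-identical copies, and the gene models of CLEC12A and CLEC1B overlap, so single values within these pairs are uncertain. The models of CD300LF, SIGLEC15, SIGLEC7, CLEC12B and CLEC4A overlap those of other genes.

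Promoter sequence is shown for 3 members on which the comparisons between drugs and lines turn: the inhibitory lectin CLEC12A, the adaptor TYROBP and the HLA class I receptor LILRB2. Each line gives the 150 bases before a transcript start in the RefSeq promoter table (GRCh38.p14), 5′ to 3′ on the gene's strand, at chr12:9971259-9971408 (+), chr19:35908296-35908445 (-) and chr19:54280629-54280778 (-). The bases of TYROBP precede its gene model, whereas those of CLEC12A and LILRB2 lie inside theirs (9951268 to 10006150 and 54273812 to 54281110), before a start within the gene, and for LILRB2 the first of 3 entries was taken. Capitals mark GAGGAA on either strand (read as TTCCTC on the other), the core of the binding motif of the myeloid factor PU.1.
CLEC12A: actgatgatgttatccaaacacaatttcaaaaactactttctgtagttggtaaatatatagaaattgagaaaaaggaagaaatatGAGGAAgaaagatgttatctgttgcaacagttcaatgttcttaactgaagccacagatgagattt
TYROBP: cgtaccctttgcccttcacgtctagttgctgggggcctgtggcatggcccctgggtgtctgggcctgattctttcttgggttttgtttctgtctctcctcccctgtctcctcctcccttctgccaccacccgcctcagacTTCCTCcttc
LILRB2: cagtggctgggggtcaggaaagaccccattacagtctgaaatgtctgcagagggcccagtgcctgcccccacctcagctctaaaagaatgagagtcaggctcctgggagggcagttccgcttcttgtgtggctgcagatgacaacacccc
CLEC12A and TYROBP each hold the letters once in these bases and LILRB2 does not hold them. Of the 50 kept members 35 had an entry of 300 bases in the promoter table, and 19 of these (54.3%) held GAGGAA on either strand, against 27.6% of all 27305 promoters. TGACAG, the core of the MEIS motif, was found in 13 (37.1%, against 15.9%), TTCNNNGAA, the STAT motif, in 6 (17.1%, against 7.88%) and TGANTCA, the AP-1 motif, in 2 (5.71%, against 7.76%). SIGLEC5 and SIGLEC14, a pair of opposed receptors, had 245 of 300 promoter bases in common (81.7%). These are matches of letters and not measured binding.

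**Figure D1:**
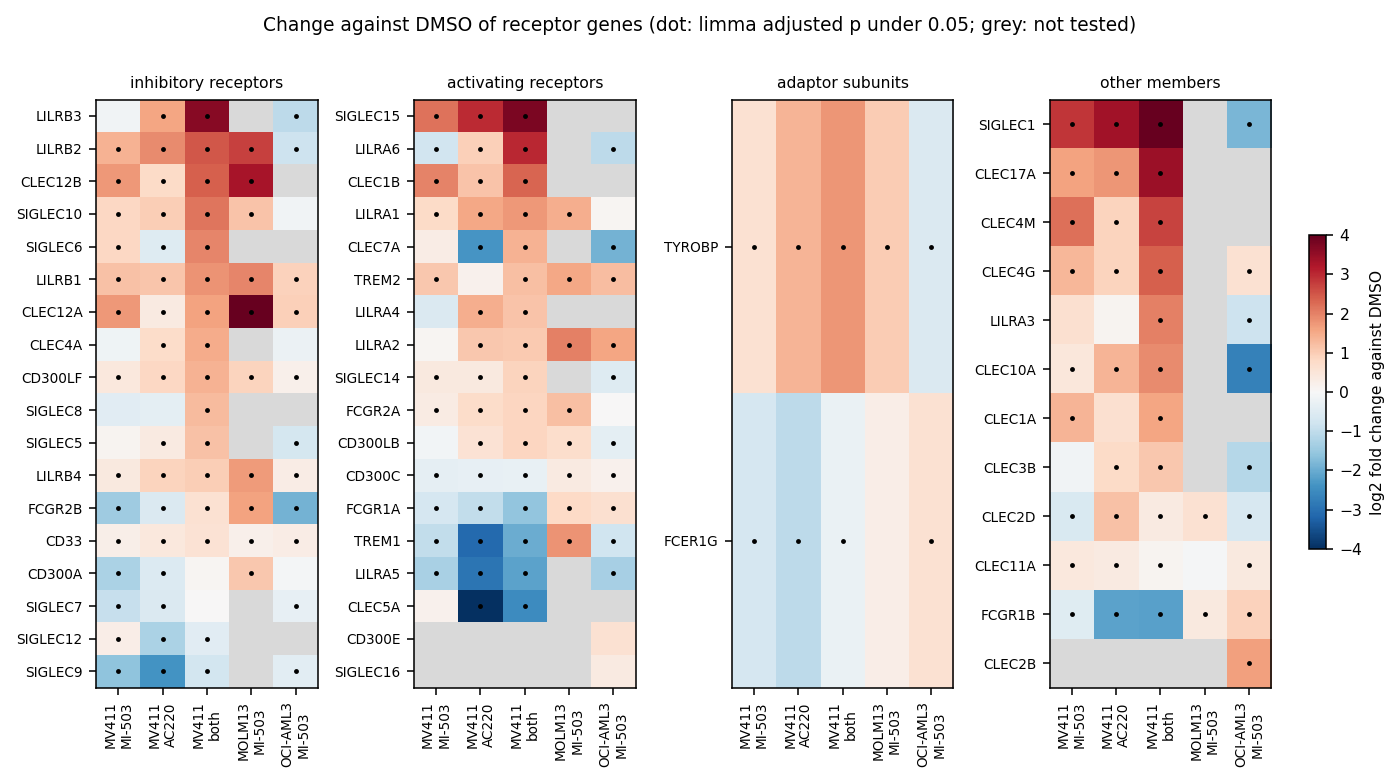
Each row is a member and each column a treatment against DMSO; colour gives the log2 fold change, dots mark an adjusted p under 0.05 and grey marks members not tested in that line. Of the inhibitory receptors, 14 of 18 rose with both drugs in MV411 and 10 of 10 rose in MOLM13 (13 of 17 and 9 of 9 without SIGLEC8 and CLEC12B, which were kept through 1 treated group alone and so had to differ), while 5 of 14 rose and 6 fell in OCI-AML3. Of the activating receptors, 11 of 16 rose and 5 fell, 8 of 8 rose, and 4 of 14 rose and 6 fell, in the same order. Of all genes, 39.3%, 29.8% and 32.8% rose and 40.1%, 30.1% and 32.8% fell.

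MI-503 alone changed the receptors of MV411 in both directions, in libraries where the summed B cell and erythroid and megakaryocyte markers were lower, and the summed monocyte and T and NK cell markers higher, than in any control. Single genes made up much of 3 of these sums. Their means with DMSO and MI-503 were 30030 and 176318 normalised reads for LYZ (monocyte) and 889 and 1775 for NKG7 (T and NK cell). For ITGA2B (erythroid and megakaryocyte) they were 851 and 233, while KLF1 of the same list rose (17.3 and 35.8). Against DMSO 24 of 47 members rose, 12 fell and 11 were not called, and over all 14421 genes tested 29.8% rose and 30.8% fell (60.6% called). The 3 treated and 3 control libraries did not overlap for 37 members, beside 66.6% of all genes. The members' median was 0.29 on the log2 scale, against -0.01 for all genes. Of 14 C-type lectins 9 rose and 1 fell, of 11 SIGLEC genes 7 rose and 2 fell, of 10 LILR genes 4 rose and 2 fell, and of 4 Fc gamma receptors 1 rose and 3 fell.

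SIGLEC1 (sialoadhesin), an adhesion receptor of macrophages for sialylated cells, counted 27.6, 16.1 and 21.5 normalised reads in the control libraries, and the MI-503 libraries reached 164, 158 and 159.7. Every treated library stood above every control, a difference of 2.86 ± 0.14 (log2, SE; adjusted p = 2.14e-14). CLEC12A, an inhibitory receptor for uric acid crystals, stood at 498, 445 and 519 in the controls, and MI-503 brought it to 1706, 1699 and 1488. It rose by 1.74 ± 0.067 (adjusted p = 3.49e-16) with no overlap between the groups. Its neighbours rose too: CLEC12B, a further inhibitory lectin, by 1.74 ± 0.16, and CLEC1B (CLEC-2), the receptor for podoplanin on platelets, by 2.00 ± 0.24. CLEC4M (L-SIGN), a mannose-binding adhesion receptor, went from 33.3, 31.1 and 37.1 to 152, 159 and 168 normalised reads and rose by 2.21 ± 0.13 (adjusted p = 7.24e-13). LILRB2, an inhibitory receptor for HLA class I, rose by 1.38 ± 0.11 from 125, 159.6 and 117 to 385, 359.5 and 303. The lipid receptor TREM2, which signals through TYROBP, was higher in every treated library, at 386, 443 and 399 against 183, 181 and 214, and rose by 1.09 ± 0.091 (adjusted p = 3.61e-10).

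The members that fell with MI-503 included inhibitory and activating receptors. FCGR2B, the inhibitory receptor for IgG, went from 98.0, 115 and 133 normalised reads in the controls to 56.1, 38.0 and 35.1, with no overlap (-1.42 ± 0.17 on the log2 scale, adjusted p = 1.05e-07). CD300A, an inhibitory receptor for phosphatidylserine, fell from 680.4, 642 and 722 to 269.7, 262 and 319 (log2 -1.27 ± 0.080, adjusted p = 2.84e-12). TREM1, which amplifies inflammatory signalling through TYROBP, went from 435, 320.2 and 468 to 215, 197 and 203, lower in every treated library by -0.97 ± 0.12 (adjusted p = 3.48e-07). The sialic acid receptors SIGLEC9 and SIGLEC7 fell by -1.61 ± 0.29 and -0.91 ± 0.11, both as signed log2 differences. The 2 adaptors moved apart: TYROBP rose by 0.62 ± 0.062, from 3295, 3765 and 3447 to 5523, 5186 and 5445, while FCER1G went from 1835, 2073 and 2109 to 1286, 1241 and 1263, a difference of -0.66 ± 0.058 (adjusted p = 9.28e-10). FCGR1A, the high-affinity IgG receptor that needs FCER1G at the surface, fell with it (-0.66 ± 0.085), as did its shorter relative FCGR1B (-0.49 ± 0.18). CD33 rose by only 0.25 ± 0.045 (adjusted p = 4.74e-05), from 2988, 2983 and 3329 to 3668, 3693 and 3674.

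AC220, given for 24 hours, raised most members. Of 47, 29 rose, 14 fell and 4 were not called, beside 37.7% of all genes higher and 37.3% lower (74.9% called), and the members' median was 0.63 against 0.01 for all genes. The groups did not overlap for 44 members, beside 77.8% of all genes. MI-503, AC220 and the combination were compared with the same 3 DMSO libraries, so their differences are given side by side and are not independent. Of 10 LILR genes 8 rose and 1 fell, and of 14 C-type lectins 11 rose and 2 fell.

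Among the LILR genes, LILRA1, an activating receptor, went from 629, 719.7 and 659 normalised reads with DMSO to 1996, 1989.6 and 1879.8 with AC220, a rise of 1.55 ± 0.057 (adjusted p = 2.35e-17). LILRB2 rose by 1.89 ± 0.11, to 513, 526 and 450.5. LILRB3, an inhibitory receptor of neutrophils and monocytes, stood at 73.9, 77.6 and 109 against 33.3, 25.1 and 26.4 and rose by 1.57 ± 0.17 (adjusted p = 1.88e-08), whereas with MI-503 its difference was -0.15 ± 0.17 and not called. All 3 LILR genes were higher in every AC220 library than in any control. LILRB4, the LILR gene with the most reads, moved from 7953, 7708 and 8166 to 15207, 14737 and 14125 (0.89 ± 0.040). SIGLEC1, described above, had 261, 224 and 206 with AC220. CLEC10A, the macrophage lectin for galactose and N-acetylgalactosamine, went from 194, 201 and 194 to 484, 532 and 505, again without overlap (1.36 ± 0.071, adjusted p = 1.94e-14). TYROBP rose by 1.37 ± 0.062 to 9239, 9607 and 8398, 2.59-fold, and CD33 by 0.43 ± 0.045.

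The members that fell with AC220 included TYROBP-coupled receptors, Fc gamma receptors and sialic acid receptors. TREM1 was at 47.02, 42.8 and 47.9 normalised reads in the AC220 libraries and fell by a log2 difference of -3.11 ± 0.12 (adjusted p = 1.07e-16). CLEC5A, an activating lectin coupled to TYROBP, stood at 41.9, 40.1 and 56.7 in the controls, at 50.1, 46.8 and 58.4 after MI-503 and at 1.92, 3.98 and 0 after AC220; it was singled out after its values were seen. Its difference with AC220 was -4.26 ± 0.41 (adjusted p = 1.81e-09), from a handful of reads in the treated libraries. SIGLEC9, an inhibitory receptor of monocytes and neutrophils, fell from 65.7, 71.3 and 61.5 to 5.76, 15.9 and 17.8 (-2.38 ± 0.29, adjusted p = 7.48e-08). SIGLEC12 fell by -1.27 ± 0.064, FCGR1B by -2.14 ± 0.18, FCGR1A by -0.97 ± 0.085 and FCER1G by -1.06 ± 0.058, as signed log2 differences. FCER1G had 1022, 985 and 884 in the AC220 libraries, below every DMSO and every MI-503 library. The difference of TREM2 with AC220 was 0.16 ± 0.091 (adjusted p = 0.121) and not called, although it passed without DMSO replicate 3 (0.23, adjusted p = 0.034).

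**Figure D2:**
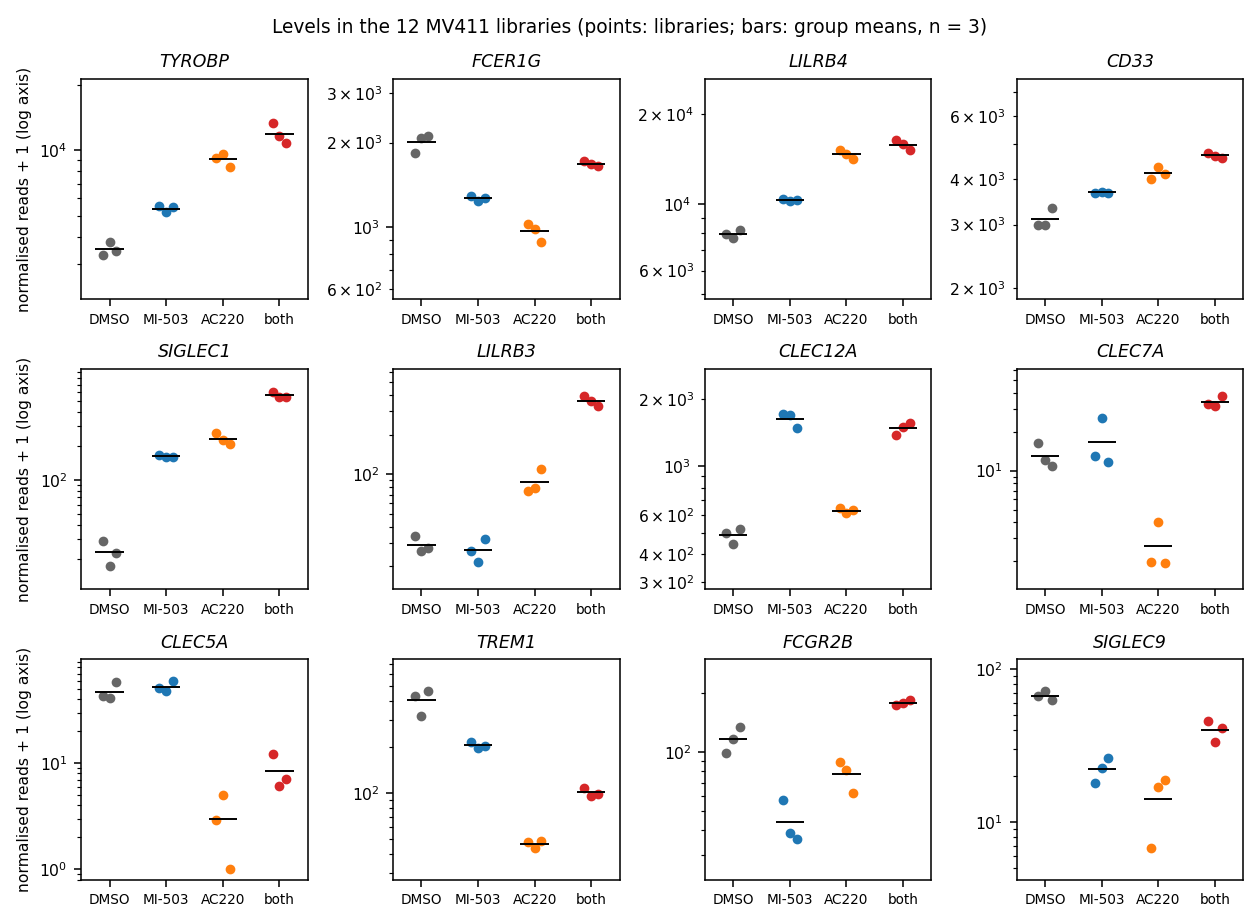
Each panel shows 1 gene in the 12 MV411 libraries, with normalised reads plus 1 on a log axis, points for libraries and bars for group means (n = 3). TYROBP and SIGLEC1 were highest with both drugs, TREM1 and CLEC5A were lowest with AC220, and CLEC7A, FCGR2B and SIGLEC9 were each higher with both drugs than with either drug.

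With both drugs 36 of 47 members rose and 9 fell against DMSO, beside 39.3% of all genes higher and 40.1% lower (79.4% called). The members' median was 1.20, against 0.00 for all genes, and the groups did not overlap for 44 members, beside 79.3% of all genes. Of 14 C-type lectins 13 rose, of 10 LILR genes 9, of 11 SIGLEC genes 8 and of 18 inhibitory receptors 14, with the 2 inhibitory members that fell being SIGLEC9 and SIGLEC12. Of 16 activating receptors 11 rose and 5 fell. SIGLEC1 reached 599, 537 and 547 normalised reads, 25.3-fold above DMSO (4.66 ± 0.14, adjusted p = 3.43e-19). LILRB3 reached 390.2, 360.1 and 326, above every library of the other groups (3.63 ± 0.17, adjusted p = 2.68e-15). Its activating near-copy LILRA6 went from 18.1, 12.04 and 16.6 in the controls to 139, 134 and 119, and rose by 3.01 ± 0.28 (adjusted p = 6.47e-10). CLEC4M rose by 2.71 ± 0.13, LILRB2 by 2.50 ± 0.11 and CLEC12B by 2.41 ± 0.16.

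TYROBP was the most abundant member per kilobase with both drugs as well, at 13333, 11638 and 10764 normalised reads, 3.39-fold above DMSO (1.76 ± 0.062, adjusted p = 7.73e-18). Its partner receptors did not move with it as a group: TREM2 rose by 1.20 ± 0.091, whereas TREM1 stood at 108, 95.6 and 98.5, lower than DMSO in every library (-1.99 ± 0.12). FCER1G was at 1715, 1676 and 1647, below every control (-0.25 ± 0.058, adjusted p = 0.000396). FCGR1A had fewer reads than under either drug alone, at 253, 315 and 263 against 772, 819 and 897 with DMSO (-1.58 ± 0.085, adjusted p = 2.17e-14). FCGR1B fell by a log2 difference of -2.16 ± 0.18 and the activating CD300C by -0.29 ± 0.087. SIGLEC12 fell by -0.44 ± 0.064, and SIGLEC9 by -0.75 ± 0.29 (adjusted p = 0.0203), a call lost without combination replicate 2 (-0.62, adjusted p = 0.0835) or DMSO replicate 2 (-0.695, adjusted p = 0.0602) and with no trend in the variance (adjusted p = 0.0601). CD33 rose by 0.59 ± 0.045, to 4746, 4644 and 4597.

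Set against each drug alone, the combination had higher levels of most members. Against MI-503, 35 of 47 were higher and 6 lower, beside 34.9% and 33.6% of all genes (68.5% called), with a median of 0.97 against 0.02. Against AC220, 37 were higher and 3 lower, beside 27.4% and 28.1% of all genes (55.5% called), with a median of 0.77 against -0.01, and every one of the 18 inhibitory receptors tested was among those higher. One of these, SIGLEC8, was kept through the combination group alone and so had to differ. Leaving it out, 34 of 46 members were higher than with MI-503 and 36 of 46 than with AC220, with 17 of 17 inhibitory receptors among the latter. Of 16 activating receptors 10 were higher than with AC220 and 1 was lower. LILRA6 and LILRB3 were each higher with both drugs than with MI-503, by 3.78 ± 0.28 and 3.78 ± 0.17, and than with AC220, by 2.04 ± 0.28 and 2.05 ± 0.17. FCGR2B was 2.04 ± 0.17 higher than with MI-503 (adjusted p = 1.35e-10), and CLEC17A (prolectin), a lectin of B cells, 1.83 ± 0.33 higher at 34.9 to 46.2 normalised reads. CLEC7A (dectin-1), the receptor for fungal beta-glucan, had 0.960, 2.98 and 0.938 with AC220 and 31.6, 30.5 and 36.9 with both drugs, the largest difference from AC220 among the members (3.78 ± 0.36, adjusted p = 5.88e-09). SIGLEC6 was at 2870.2, 3007 and 2907 with both drugs, above every library with AC220 (622, 486 and 485), with MI-503 (1348, 1338 and 1399) and with DMSO (819, 701 and 771). Lower than with MI-503 were CLEC5A (-2.69 ± 0.41), FCGR1B (-1.67 ± 0.18), TREM1 (-1.02 ± 0.12) and FCGR1A (-0.92 ± 0.085), and the members lower than with AC220 were CLEC2D, a ligand of an NK cell receptor (-0.82 ± 0.078), FCGR1A (-0.61 ± 0.085) and CLEC11A (-0.25 ± 0.051).

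Whether the drugs added up was tested with an interaction term, the combination's log2 difference minus the sum of the 2 single ones. It was positive for 19 of 47 members, negative for 10 and not called for 18, beside 20.9% and 21.6% of all genes (42.5% called), with a median of 0.17 against -0.02. Of the 18 inhibitory receptors it was positive for 11 and negative for 4, and of the 16 activating ones positive for 6 and negative for 3. Of the 11 members placed in neither class, the adaptors aside, it was positive for 1 and negative for 2. Leaving out SIGLEC8, which was kept through the combination group alone, the term was positive for 18 of 46 members and for 10 of 17 inhibitory receptors. CLEC7A had the largest positive term (3.48 ± 0.51, adjusted p = 7.47e-06): AC220 alone lowered it from 15.2, 11.0 and 9.77, MI-503 alone left it at 12.03, 24.4 and 10.7 and both raised it. SIGLEC9 had 3.23 ± 0.40 (adjusted p = 7.23e-07), with 45.1, 32.6 and 40.0 under both drugs, above every library of either single drug and below every control. FCGR2B had 2.64 ± 0.24 (adjusted p = 3.88e-09): each drug alone lowered it, while with both it stood at 171, 176 and 184, above every DMSO library. LILRA6 had 2.82 ± 0.39 (adjusted p = 3.48e-06).

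Negative terms belonged to members that both drugs raised. That of SIGLEC1 was -1.58 ± 0.20 (adjusted p = 6.92e-07), that of LILRB2 -0.78 ± 0.15 (adjusted p = 0.000178) and that of CLEC11A -0.68 ± 0.072, and all 3 genes were called higher with both drugs than with DMSO. SIGLEC15, a TYROBP-coupled receptor of macrophages and osteoclasts, went from 2.85, 3.01 and 0.977 normalised reads in the controls to 40.6, 40.7 and 43.1 under both drugs. Its term of -1.40 ± 0.46 (adjusted p = 0.0168) was not called without MI-503 replicate 3 (-1.13, adjusted p = 0.0627) or with a pseudocount of 8 (-0.42, adjusted p = 0.212). CD33 moved by the sum of the single changes within error (-0.08 ± 0.064, not called).

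**Figure D3:**
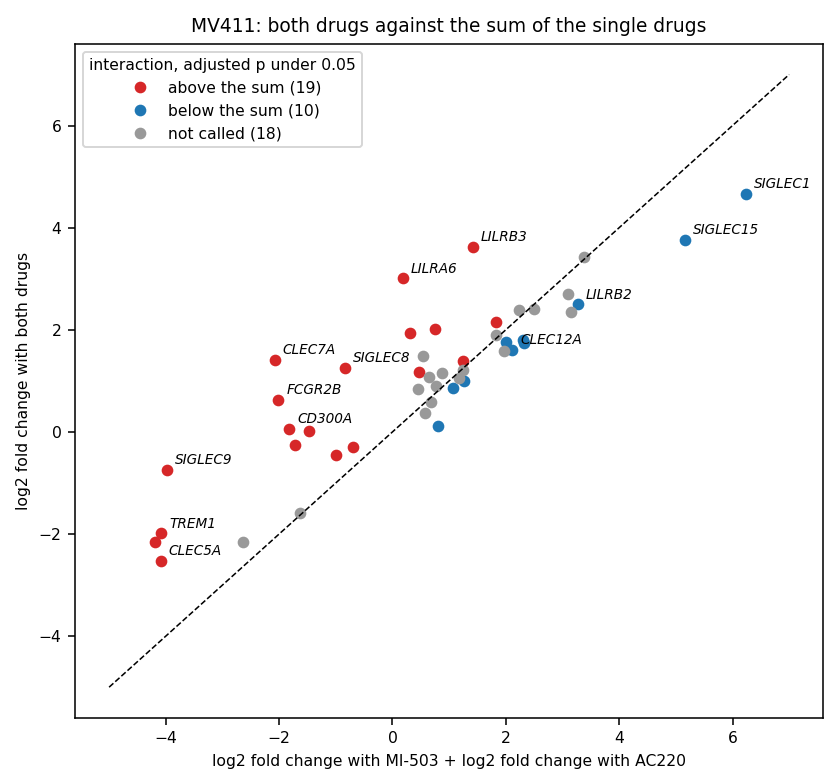
Each of the 47 points is a member in MV411; the horizontal axis gives the sum of the single-drug log2 fold changes, the vertical axis the log2 fold change with both drugs, and the dashed line their equality. Red points (19) had a positive and blue points (10) a negative interaction; CLEC7A, SIGLEC9, LILRA6 and FCGR2B lie farthest above the line and SIGLEC1 lies below it. The red points include SIGLEC8, which was kept through the combination group alone (18 positive without it).

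In MOLM13, which had fewer members kept and lower levels of most, MI-503 raised nearly all of them. Of 23 members 21 rose and none fell, beside 29.8% of all genes higher and 30.1% lower (59.9% called), with a median of 1.13 against -0.01. The 2 not called were FCER1G and CLEC11A. Every treated library had a higher summed level of monocyte and granulocyte identity genes and of T and NK cell markers than any control, and a lower one of B cell markers. Most of the T and NK cell sum was NCAM1 (means of 2687 normalised reads with DMSO and 4091 with MI-503). Most of the B cell sum was PAX5 (1344 and 893). The groups did not overlap for 21 members, beside 64.9% of all genes. On the deposited scale 16 rose and CLEC11A fell, beside 5.91% and 70.6% of all genes (76.5% called), with a median of 0.60 against -0.54.

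CLEC12A went from 9.29, 11.8 and 19.1 normalised reads to 253, 285 and 332, a 20.9-fold rise (4.39 ± 0.21, adjusted p = 1.32e-11). LILRB2 went from 6.501, 8.83 and 11.1 to 77.2, 57.9 and 54.8 (2.72 ± 0.24, adjusted p = 5.65e-08). LILRB4 went from 1009, 1033 and 926 to 3274, 3191 and 3256 (1.71 ± 0.041, adjusted p = 2.33e-15). In each of these 3 inhibitory receptors every treated library exceeded every control. LILRB1, the broad HLA class I receptor, rose by 1.95 ± 0.15, and LILRA2, an activating receptor for cleaved immunoglobulin, by 2.00 ± 0.061, from 321, 343 and 377 to 1478, 1346 and 1355. FCGR2B rose by 1.61 ± 0.20, from 34.4, 61.8 and 65.5 to 176, 134 and 173. Both TREM receptors rose as well, TREM2 by 1.55 ± 0.15 from 72.4, 46.1 and 53.4 to 166, 180.4 and 156, and TREM1 by 1.80 ± 0.30 (adjusted p = 6.17e-05) at low levels, from 8.36, 6.87 and 5.04 to 22.1, 23.0 and 33.3. TREM1 reached a deposited value of 10 in only 4 libraries, 3 of them treated, so the filter favoured its rise. TYROBP went from 215, 227 and 223 to 476, 438 and 437, a rise of 1.02 ± 0.070 (adjusted p = 1.86e-09). FCER1G was scarce in this line, at 13.9, 19.6 and 16.1 and 20.1, 18.6 and 21.5, and was not called (0.27 ± 0.25, adjusted p = 0.358). CD33 went from 1213, 1054 and 1105 to 1351, 1287 and 1215. Its sign depended on the scale: 0.19 ± 0.052 (adjusted p = 0.00439) relative to the median gene and -0.34 (adjusted p = 0.0604 from its own variance) on the deposited scale. The first call was lost with no trend in the variance (adjusted p = 0.0559).

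In OCI-AML3 the same drug, dose and time gave a divided response. Of 39 members 14 rose, 18 fell and 7 were not called, beside 32.8% of all genes in each direction (65.5% called), with a median of -0.15 against 0.00. The groups did not overlap for 33 members, beside 69.6% of all genes. On the deposited scale, where the factors differed most between libraries of a group, no member and no gene was called from its own variance (0.0% of 15700), with 17 members and 2303 genes at an unadjusted p under 0.05 and a median of -0.31 against -0.16. The calls in OCI-AML3 were thus lost with the deposited factors, while limma called 30 members on equal library totals and 32 with TMM factors, and on the recovered reads edgeR called 32 and DESeq2 26. Of 9 LILR genes 3 rose and 5 fell, and of 8 SIGLEC genes 1 rose and 5 fell.

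LILRA2 went from 1432, 1368 and 1475 normalised reads to 4205, 4153 and 4345 and rose by 1.57 ± 0.038 (adjusted p = 8.92e-12). TREM2 rose by 1.22 ± 0.055, from 447, 443 and 488 to 1100.1, 1033 and 1085, and LILRB1 by 0.94 ± 0.071. CLEC12A rose by 0.96 ± 0.090 (adjusted p = 1.34e-06), from 130.4, 132 and 136 to 283, 236 and 262. These 4 were higher in every treated library. FCER1G, far more abundant than in MOLM13, went from 5614, 5604 and 5843 to 9186, 8482 and 8411 (0.61 ± 0.036, adjusted p = 2.49e-08), and its partner FCGR1A from 1270.2, 1362 and 1391 to 2109, 2081 and 2093 (0.64 ± 0.042), with FCGR1B rising by 0.92 ± 0.11 and CD33 by 0.31 ± 0.030. On the deposited scale these 4 differences were 0.45, 0.48, 0.76 and 0.15, all of the same sign.

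Among the members that fell in OCI-AML3, CLEC10A went from 129.5, 122 and 141 normalised reads to 15.7, 23.9 and 18.9 (-2.70 ± 0.17, adjusted p = 4.88e-08). FCGR2B went from 779.9, 1008 and 859 to 242, 221 and 239.8 (-1.90 ± 0.086, adjusted p = 2.28e-09). CLEC7A went from 95.3, 97.4 and 83.5 to 32.7, 21.8 and 18.9 (-1.90 ± 0.20, adjusted p = 3.76e-06). The groups did not overlap for these 3 receptors. LILRA5, an activating receptor of monocytes that pairs with FCER1G, fell from 216, 176 and 175 to 70.7, 72.7 and 77.4 (-1.34 ± 0.11), LILRB2 by -0.83 ± 0.12 and TREM1 by -0.81 ± 0.13, as signed log2 differences. SIGLEC1, which rose under each treatment in MV411, went from 43.5, 24.97 and 41.8 to 9.17, 9.35 and 9.44 here (-1.83 ± 0.26, adjusted p = 6.04e-05). It reached a deposited value of 10 in only 4 libraries of this line, 3 of them controls, so the filter favoured its fall. TYROBP went from 948, 1005 and 1013 to 642, 646 and 686 (-0.59 ± 0.050, adjusted p = 6.06e-07).

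**Figure D4:**
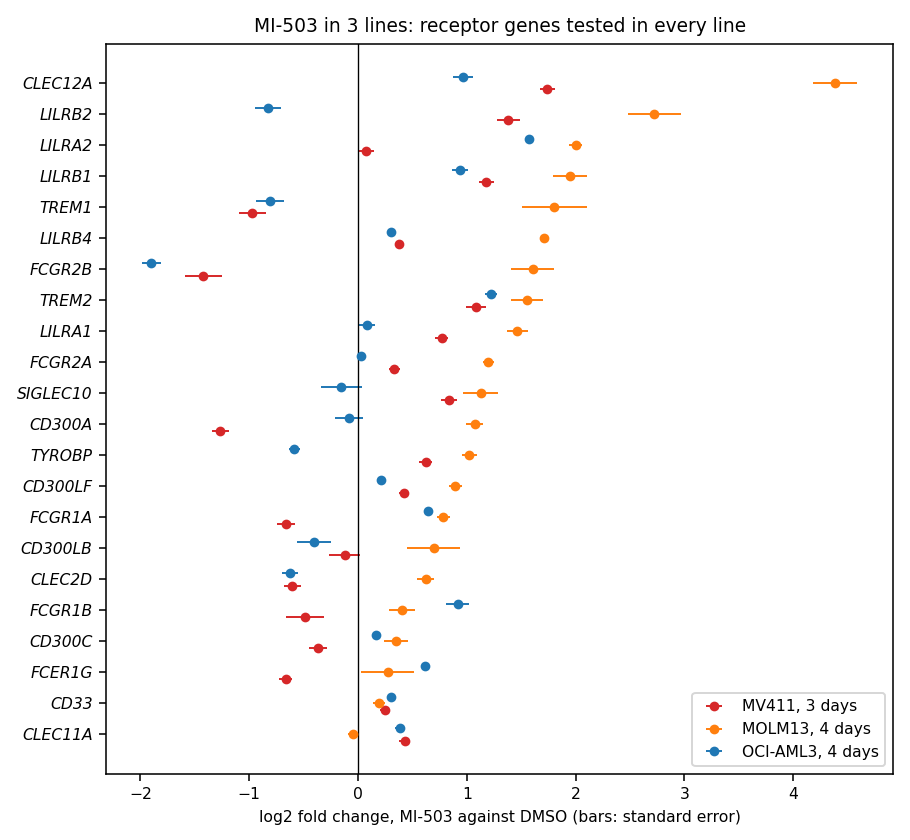
Points give the log2 fold change of MI-503 against DMSO for the 22 members tested in every line, with bars for the standard error; MV411 was treated for 3 days and the other lines for 4. CLEC12A, LILRB1 and TREM2 lie to the right of 0 in every line, FCGR2B and TREM1 lie right of 0 in MOLM13 alone, and LILRB2 and TYROBP lie left of 0 in OCI-AML3 alone; on the deposited scale the MOLM13 point of CD33 moves to -0.34. TREM1 passed the filter in MOLM13 mainly through the MI-503 group.

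The difference between lines was tested directly, as the MI-503 effect in one line minus that in another; each line had its own table and controls, and MV411 was treated a day less than the others, so line and time cannot be told apart in the first of these. The effect in MV411 was lower than in MOLM13 for 20 of 23 members and higher for 1, beside 28.9% and 24.8% of all genes (53.7% called), with a median of -0.90 against -0.01. On the deposited scale it was lower for 12 and higher for 2, beside 7.50% and 67.8% of all genes (75.3% called). Among the 20 was CLEC12B, which was kept in MOLM13 through the MI-503 group alone and so had to differ there. TREM1, also among them, passed the filter in MOLM13 mainly through the MI-503 group. The members furthest below were FCGR2B (-3.03 ± 0.29, adjusted p = 2.6e-09), TREM1 (-2.78 ± 0.25, adjusted p = 1.01e-09) and CD300A (-2.34 ± 0.11, adjusted p = 8.75e-15), which fell in MV411 and rose in MOLM13, and CLEC12A (-2.64 ± 0.20), which rose in both. CLEC11A was the member higher (0.48 ± 0.074).

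The effect in MOLM13 was higher than in OCI-AML3, at the same dose and time, for 15 of 22 members and lower for 3, beside 32.3% and 30.6% of all genes (62.8% called), with a median of 1.13 against 0.00. On the deposited scale it was higher for 7 and lower for none, beside 2.62% and 6.33% of all genes (8.95% called). LILRB2 differed by 3.55 ± 0.27 (adjusted p = 4.01e-09), FCGR2B by 3.51 ± 0.25 (adjusted p = 1.89e-09) and TREM1 by 2.61 ± 0.27 (adjusted p = 2.08e-07), with opposite directions in these 2 lines. In MOLM13 the filter favoured the rise of TREM1, as described above. CLEC12A differed by 3.42 ± 0.26 with a rise in both, and the adaptor TYROBP by 1.61 ± 0.083. Lower in MOLM13 were FCGR1B (-0.51 ± 0.16), CLEC11A (-0.44 ± 0.072) and FCER1G (-0.34 ± 0.13, adjusted p = 0.0345); these 3 calls were lost on the deposited scale (adjusted p = 0.0692, 0.0992 and 0.121), and that of FCER1G also in edgeR (adjusted p = 0.307) and DESeq2 (adjusted p = 0.318), and without MOLM13 DMSO replicate 2 (-0.22, adjusted p = 0.0866), MOLM13 MI-503 replicate 2 (-0.29, adjusted p = 0.0709) or any single OCI-AML3 library (adjusted p = 0.05 to 0.0913).

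Most members lie in blocks of neighbouring genes, which were counted block by block. Beside these counts stand the shares of all genes higher and lower. In MV411 they were 29.8% and 30.8% (MI-503), 37.7% and 37.3% (AC220) and 39.3% and 40.1% (both drugs). In MOLM13 they were 29.8% and 30.1%, and in OCI-AML3 32.8% each way. With so few genes per block, small departures from these shares were not read as a result. The LILR block of chromosome 19 (RefSeq, 54216278 to 54668718) had 9 genes tested in MV411. With MI-503 4 of them rose, 2 fell and 3 were not called, with a median of 0.08. With AC220 8 rose and LILRA5 fell, and with both drugs the same split was found, LILRA5 at 5.64, 7.12 and 3.08 normalised reads with both drugs and 24.7, 20.1 and 34.2 with DMSO lying between LILRB2 and LILRA4, which rose. LILRA5 reached a deposited value of 10 in only 4 MV411 libraries, 3 of them controls, so the filter favoured its fall. In MOLM13 5 of 5 tested genes of the block rose, and in OCI-AML3 3 rose, 4 fell and 1 was not called. In the C-type lectin block of chromosome 12 (9669713 to 10130304), 4 adjacent tested genes, CLEC12A, CLEC1B, CLEC12B and CLEC1A, rose with MI-503 in MV411 while CLEC2D at one end fell (-0.60 ± 0.078) and CLEC7A at the other was not called. In the SIGLEC block of chromosome 19 (49948985 to 51646825, CLEC11A included) 6 of 10 tested genes rose with MI-503 and 2 fell. SIGLEC9 and SIGLEC7, which fell, lie next to each other and beside CD33, which rose.

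**Figure D5:**
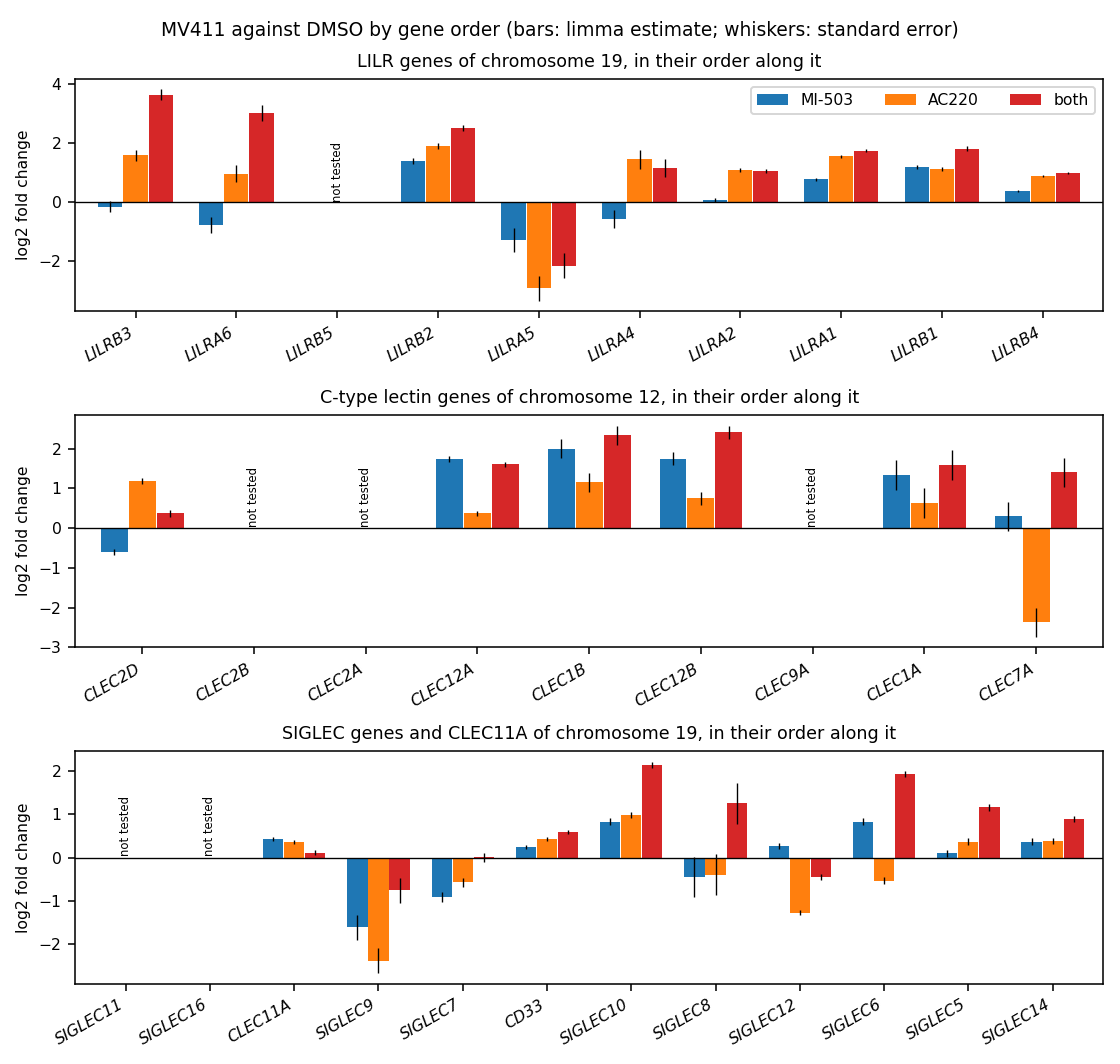
Bars give log2 fold changes against DMSO in MV411 with standard errors for the genes of 3 blocks, in their order along the chromosome and not to scale. LILRA5 lies below 0 under every treatment, while the 8 other LILR genes lie above 0 with AC220 and with both drugs, CLEC12A to CLEC1A stand above 0 with MI-503 and with both drugs, and SIGLEC9 lies below 0 under every treatment. LILRA5 passed the filter mainly through the DMSO group.

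Several members not yet described rose under every treatment of MV411. Here the inhibitory SIGLEC10, a receptor for CD24, rose (0.84, 0.99 and 2.14 with MI-503, AC220 and both), as did CD300LF (0.42, 0.82 and 1.40), LILRB1 (1.18, 1.12 and 1.81), the activating IgG receptor FCGR2A (0.33, 0.73 and 0.87) and the liver and lymph node lectin CLEC4G (1.33, 0.90 and 2.40). The paired receptors SIGLEC5, inhibitory, and SIGLEC14, activating, rose with both drugs by 1.17 and 0.91 and fell in OCI-AML3 (-0.69 and -0.51). CLEC4A, an inhibitory lectin of dendritic cells, rose with AC220 (0.72) and with both drugs (1.49), as did LILRA4, a receptor of plasmacytoid dendritic cells (1.45 and 1.15), CLEC3B, a secreted plasminogen-binding lectin (0.77 and 1.07), and the activating CD300LB (0.57 and 0.84). LILRA3, a secreted member of the family, rose with both drugs alone (2.02), with 0.64 and 0.10 under the single drugs not called. CLEC4A, LILRA4 and LILRA3 had few reads in MV411, with highest values of 31.5, 27.9 and 25.6 normalised reads. LILRA3 reached a deposited value of 10 in only 4 libraries, mainly those with both drugs, so the filter favoured its rise. In OCI-AML3 the activating CD300E (0.60 ± 0.32) and SIGLEC16 (0.37 ± 0.31) were not called.

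Genes that transmit the receptors' signals were counted from lists, to be read beside the shares of all genes higher and lower given above: in MV411 29.8% and 30.8% (MI-503), 37.7% and 37.3% (AC220) and 39.3% and 40.1% (both drugs), in MOLM13 29.8% and 30.1% (5.91% and 70.6% on the deposited scale) and in OCI-AML3 32.8% each way (none on the deposited scale). Of 26 tested genes of ITAM signalling 11 rose and 7 fell with MI-503 in MV411, 12 rose and 4 fell with AC220 and 18 rose and 6 fell with both, with medians of 0.10, 0.11 and 0.34. With AC220 the called share of the list was 61.5%, beside 74.9% of all genes. In MOLM13 16 of 26 rose and 5 fell, with a median of 0.27, but on the deposited scale 7 rose and 13 fell, with a median of -0.27. In OCI-AML3 5 of 25 rose and 11 fell, with a median of -0.07 (-0.23 on the deposited scale). FGR, a Src family kinase that phosphorylates these motifs, followed the lines' split: it rose in MV411 with MI-503 (1.34 ± 0.080) and with both drugs (2.24 ± 0.080), rose in MOLM13 (2.99 ± 0.21) and fell in OCI-AML3 (-1.70 ± 0.065). FYN, a kinase of the same family, fell with AC220 in MV411 (-2.08 ± 0.11), and the adaptor BLNK rose (2.08 ± 0.29). Of 10 genes of ITIM signalling 2 rose and 4 fell with MI-503 in MV411, and 5 rose and 3 fell with AC220 and with both. The phosphatase PTPN11 (SHP-2) fell with both drugs (-0.56 ± 0.046), and PAG1, which anchors the kinase CSK, fell with MI-503 (-1.16 ± 0.045), with AC220 (-0.82 ± 0.045) and with both (-1.63 ± 0.045).

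Genes behind the ligand of SIGLEC receptors were counted in the same way. Of 14 genes for making and attaching sialic acid, that ligand, 6 rose and 2 fell with MI-503 in MV411, 7 rose and 5 fell with AC220 and 9 rose and 5 fell with both. In MOLM13 10 rose and 1 fell, with a median of 0.16, but on the deposited scale 2 rose and 9 fell, with a median of -0.37. In OCI-AML3 12 rose and 2 fell, with a median of 0.33 (0.17 on the deposited scale). The sialyltransferase ST3GAL6 rose with MI-503 in MV411 (0.83 ± 0.061), MOLM13 (2.39 ± 0.079) and OCI-AML3 (1.71 ± 0.053), while CMAS, which activates sialic acid, fell in MV411 (-0.63 ± 0.056).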

How the data were processed

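RNA-seq of 24 libraries from 3 leukaemia lines was used. The authors deposited normalised expression values (signal) for 25680 genes in 3 tables, with 0 columns left out. The submitters' processing notes name DESeq version 2 and hg38; aligner, counter and annotation are not given in the sources used here. In each library all values (100%, tolerance 0.001) were whole reads divided by 1 factor. In MV411 this factor equalled the median-of-ratios factor, although the columns carry the spike-in's name; in MOLM13 and OCI-AML3 it did not. Reads were rescaled by median-of-ratios factors within each table, since the deposited factors of the last 2 lines differ from these by a ratio of 0.762 to 1.25, and tested with limma 3.58.1 (R 4.3.3) on log2(value + 1) with a variance trend, over genes whose deposited value reached 10 in 3 or more libraries, with Benjamini-Hochberg adjustment at 0.05. MV411 groups shared 1 fit; line differences joined tables in 1 fit. Named members were CD33, FCER1G, TYROBP, TREM1, TREM2 and, per direction, up to 6 called members against DMSO (4 in other comparisons) with the largest change and a group mean of at least 50; other members were added after their values were seen. Members and lists were chosen with earlier results of these data known.

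On the recovered reads, edgeR 4.0.16 called 8819 genes with MI-503, 10866 with AC220 and 11462 with both in MV411, 8053 in MOLM13 and 10344 in OCI-AML3; DESeq2 1.42.0 was a further alternative. Libraries of one group differed beyond counting noise (chi-square per degree of freedom 1.591 to 9.414 over 24 pairs). The fits were tested on simulated data with 200 changed genes. Gene positions and promoters came from RefSeq (GRCh38.p14) and exon lengths from GENCODE v29, matched by symbol for 69 of 70 names each. Alternatives were other scalings, pseudocounts of 0.5 and 8, a minimum of 50, no filter, no variance trend, a replicate block, leaving out each library, the deposited scale with each gene's own variance (added after seeing the data) and fits on only the groups compared. Results on the genes for the ligands of LILRB1 and LILRB2 are not reported here.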

Additional observations from a re-analysis of the deposited data

Results flagged for a closer look

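In MV411 the effect of one drug depended on the other for 29 of 47 members by the interaction term (limma, adjusted p under 0.05), beside 42.5% of all genes. Leaving out SIGLEC8, which was kept through the combination group alone, the term was positive for 18 of 46 members and negative for 10. The terms were 3.48 for CLEC7A, 3.23 for SIGLEC9, 2.82 for LILRA6 and 2.64 for FCGR2B, and -1.58 for SIGLEC1, -1.40 for SIGLEC15, -0.78 for LILRB2 and -0.68 for CLEC11A, on the log2 scale.

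The effect of MI-503 differed between MV411 and MOLM13 for 21 of 23 members by the test of the difference, beside 53.7% of all genes, and for 14 on the deposited scale. The 21 include CLEC12B, which was kept in MOLM13 through the MI-503 group alone, and TREM1, which was kept there mainly through that group. The MV411 effect minus the MOLM13 effect was 0.48 for CLEC11A, -3.03 for FCGR2B, -2.78 for TREM1, -2.64 for CLEC12A and -2.34 for CD300A. Treatment lasted 3 days in MV411 and 4 in MOLM13.

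Between MOLM13 and OCI-AML3 it differed for 18 of 22 members, beside 62.8% of all genes, and for 7 on the deposited scale. The MOLM13 effect minus the OCI-AML3 effect was 3.55 for LILRB2, 3.51 for FCGR2B, 3.42 for CLEC12A and 2.61 for TREM1, and -0.51 for FCGR1B, -0.44 for CLEC11A and -0.34 for FCER1G. TREM1 was kept in MOLM13 mainly through the MI-503 group.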

How the results depend on the processing

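Counts of called members stayed within 1.5 times of the reported ones under all but 5 of the alternatives run. In OCI-AML3 the deposited scale gave 17 called members in place of 32 in the moderated limma fit and 0 from each gene's own variance (17 at an unadjusted p under 0.05). Between MOLM13 and OCI-AML3 own variances on that scale gave 7 in place of 18. The moderated fit there had infinite prior degrees of freedom and 62800 in total for OCI-AML3 and 53572 for MOLM13, against 11.8 and 16.2 on the main scale, so its p-values are too small. With no filter on low values 34 members differed between MV411 and MOLM13 in place of 21, and 34 between MOLM13 and OCI-AML3 in place of 18, as more members were tested. Over all genes the deposited scale gave 1676 calls in the moderated fit and 0 from own variances in OCI-AML3 in place of 10291, and 3222 and 1166 between MOLM13 and OCI-AML3 in place of 8186. Leaving out 1 library at a time gave 33 to 36 called members with MI-503, 42 to 43 with AC220 and 43 to 45 with both in MV411, 40 to 42 and 35 to 40 for both against MI-503 and AC220, 24 to 29 for the interaction, 20 to 21 in MOLM13, 28 to 31 in OCI-AML3, and 20 to 21 and 17 to 19 for the line differences. Of 2399 checks on 106 named values, 2356 kept the direction and the side of the threshold, 40 lost the call and 1 gained it (TREM2 with AC220). CD33 in MOLM13 reversed in 2, at -0.34 on the deposited scale (adjusted p = 0.000814 moderated, 0.0604 from its own variance); the shift of the median gene there was -0.54.

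Groups share replicate numbers, but same-numbered libraries did not deviate together (correlations -0.0814 to 0.1206 in MV411, -0.0062 to 0.057 in MOLM13 and -0.0324 to 0.0414 in OCI-AML3), and a library correlated best with its own number in 5 of 18, 2 of 3 and 1 of 3 cases. With the number as a replicate block 36, 43, 45, 41, 39 and 30 members were called in the MV411 comparisons (each drug and both against DMSO, both against MI-503 and AC220, interaction), 21 in MOLM13, 30 in OCI-AML3, and 21 and 18 for the line differences. Depth limits members at a few reads, such as CLEC5A with AC220 and FCER1G in MOLM13.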

Other observations

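Receptors of the same kinds outside the naming rule were followed as a list of 33 genes. In MV411 12 of 27 tested rose and 8 fell with MI-503, 14 rose and 9 fell with AC220 and 19 rose and 7 fell with both, in MOLM13 19 of 21 rose and 1 fell, and in OCI-AML3 6 of 23 rose and 12 fell. Beside these, 29.8% of all genes in MV411 rose and 30.8% fell (MI-503), 37.7% and 37.3% (AC220) and 39.3% and 40.1% (both drugs), 29.8% and 30.1% in MOLM13, and 32.8% each way in OCI-AML3. From each gene's own variance on the deposited scale 8 rose and 5 fell in MOLM13 and none was called in OCI-AML3. Of the 21 in MOLM13, 19 were kept through more than 1 group, and 17 of those rose. CD209 (DC-SIGN), a lectin next to CLEC4M in function, rose in MV411 with MI-503 (2.20 ± 0.079, log2 and SE) and with both drugs (3.01 ± 0.079). OLR1, a scavenger receptor for oxidised lipoprotein, rose with MI-503 in MV411 (1.80 ± 0.16) and with both drugs (3.00 ± 0.16). With AC220 alone its mean was lower than with DMSO (13.4 against 29.9 normalised reads), and its interaction term was positive (2.30 ± 0.23). FCAR, the IgA receptor that uses FCER1G, fell with AC220 in MV411 (-3.17 ± 0.28) and rose with MI-503 in OCI-AML3 (1.20 ± 0.11). OSCAR, a further partner of FCER1G, rose in MOLM13 (2.34 ± 0.13) and fell in OCI-AML3 (-1.35 ± 0.055).

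Of the monocyte and granulocyte identity genes 13 of 18 rose and 1 fell with MI-503 in MV411, 9 rose and 6 fell with AC220 and 15 rose and 1 fell with both, while in MOLM13 14 of 15 rose and ELANE, neutrophil elastase, fell (-0.27 ± 0.055), and in OCI-AML3 8 of 21 rose and 10 fell, beside the same shares of all genes. The deposited scale gave 7 rises and 2 falls in MOLM13, and none was called in OCI-AML3. With AC220 the endotoxin coreceptor CD14 fell (-2.77 ± 0.39), but from a mean of only 8.81 normalised reads with DMSO to 0.64. The lysosomal CD68 rose (1.53 ± 0.049), from 3920 to 11302. In OCI-AML3 the integrin ITGAM rose (2.41 ± 0.071), while CSF1R, the receptor for macrophage colony-stimulating factor, fell (-2.46 ± 0.11), and in MOLM13 CSF1R rose (2.43 ± 0.090).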
